A study of Mus musculus with 2 samples.

Results

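Interferon-stimulated genes are the genes that cells switch on when they sense virus or receive interferon, and 39 of them were followed here in mouse mammary basal cells. One library came from cells given a scrambled hairpin, labelled Scramble control, and the other from cells in which a hairpin targeted Cdk14, labelled Cdk14-sh. Cdk14 is a cyclin Y-dependent kinase that promotes Wnt receptor phosphorylation. The 39 genes were chosen by symbol as type I interferon effectors, sensors and Irf and Stat regulators. Of the 15239 rows of the deposited table, 29 carried one of these symbols, and 27 of those had a mean of at least 1 FPKM (fragments per kilobase of gene, scaled to the library total) over both libraries. The other 10 (Ifit3, Ifit3b, Oas1a, Oas2, Oas3, Usp18, Mx1, Mx2, Gbp5 and Bst2) were not analysed here. No row of the table is at 0 in either library. Both groups are labelled as normal mouse mammary gland, with mammary basal cells as the source, and their labels differ only in the hairpin. Any difference in preparation or cell make-up between the libraries cannot be told apart from the hairpin. With 1 library in each group, differences lack any replicate check and are described without tests or p-values. The sources used here give no strain, age or number of animals, nor whether the hairpin cells were clones. Other label text names different material, a human breast cancer line and retinas, and the mouse mammary labels of the samples were followed.

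Library totals recovered from the FPKM values were near equal, 10186924 reads (Scramble control) and 10177185 reads (Cdk14-sh). Cdk14 itself was at 2.06 FPKM in Scramble control and 0.713 FPKM in Cdk14-sh, 34.5% of the control level (25.7 to 45.5). Ranges given after a fold or ratio are 95% intervals that cover counting error only, so they compare these 2 libraries and not the conditions. All 10 basal and myoepithelial markers were in the table, with sums of 4470 FPKM in Scramble control and 3101 FPKM in Cdk14-sh. They went both ways, with Trp63 2.83-fold and Krt5 1.87-fold higher in Cdk14-sh and Cnn1 3.37-fold, Tagln 2.80-fold and Myh11 2.24-fold lower. Luminal markers were present too, 11 of 13 with sums of 1236 and 688 FPKM. They also went both ways, with 3 of the 7 measured above a log2 ratio of 0 and 4 below. The other 4, with a mean under 1 FPKM, were all higher in Cdk14-sh. Their reads in Scramble control and Cdk14-sh were 12 and 216 (Esr1), 24 and 276 (Prlr), 30 and 68 (Kit) and 1 and 34 (Pgr). Krt8 was at 456 and 223 FPKM and Krt18 at 382 and 106 FPKM. Krt19 was at 20.5 and 42.9 FPKM and Cldn4 at 10.7 and 19.7 FPKM. Photoreceptor genes, checked because of the retina text, were low: 2 of 9 had a row, Gnat1 at 1.88 and 0.130 FPKM and Opn1sw at 1.59 and 1.65 FPKM. Of 13 endothelial markers searched, 12 had a row, and 9 of these 12 were at least 2-fold lower in Cdk14-sh. Of all measured genes 13.5% were as far lower. In Cdk14-sh, 5 of the 12 had under 20 reads. The summed level of the 12 was 273 FPKM in Scramble control and 62.2 FPKM in Cdk14-sh. In bulk RNA, fewer cells of a type and less RNA per cell cannot be told apart.

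Type I interferons bind the receptor pair Ifnar1 and Ifnar2 and act through the kinases Jak1 and Tyk2 on a complex that holds Stat2 and Irf9 and binds the interferon-stimulated response element (ISRE) in the promoters of their targets. Interferon-gamma acts through Ifngr1, Ifngr2, Jak1 and Jak2 on genes with a gamma-activated site (GAS), and also induces Irf1, which binds ISRE-like sequences. The targets include sensors of viral RNA, enzymes that block viral translation, and GTPases that attack the compartments of intracellular microbes. Epithelial cells express many of them at a low level without infection.

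The promoters show what the members share in sequence. RefSeq promoter windows (build GRCm38.p6), from 250 bases before to 50 bases after an annotated start, were matched by symbol for 32 of the 39 members. The ISRE core was searched as GAAA, any 2 bases and GAAA again, and the GAS core as TTCNNNGAA, each on both strands. The motifs can overlap, and each was counted on its own. An ISRE core was found for 19 of the 32 members (59.4%), where 3.99% of all 27025 genes with a promoter entry had one. A GAS core was found for 10 of the 32 (31.2%) against 9.55% of all genes. Both motifs were found for 5 members and neither for 8. A match is a description of letters and shows no binding. The promoters below belong to members at the ends of the range described later, Rsad2 and Ifit1, which were higher in Cdk14-sh, and Eif2ak2 and Ddx58, which were lower. They run 5′ to 3′ from 250 bases before to 30 bases after the start, with motif matches in capitals.
Rsad2, chr12:26456423-26456702, minus strand: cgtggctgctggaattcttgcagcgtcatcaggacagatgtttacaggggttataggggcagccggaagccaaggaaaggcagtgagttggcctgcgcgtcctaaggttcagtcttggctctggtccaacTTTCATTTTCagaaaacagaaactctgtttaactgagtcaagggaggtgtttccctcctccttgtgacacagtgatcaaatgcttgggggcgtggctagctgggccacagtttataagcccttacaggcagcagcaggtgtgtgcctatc
Ifit1, chr19:34640639-34640918, plus strand: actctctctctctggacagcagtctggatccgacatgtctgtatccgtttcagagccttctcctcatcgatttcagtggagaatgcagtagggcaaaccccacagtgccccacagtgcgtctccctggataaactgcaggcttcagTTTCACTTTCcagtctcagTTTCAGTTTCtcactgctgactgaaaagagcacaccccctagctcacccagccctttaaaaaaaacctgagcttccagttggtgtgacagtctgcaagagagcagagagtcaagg
Eif2ak2, chr17:78882543-78882822, minus strand: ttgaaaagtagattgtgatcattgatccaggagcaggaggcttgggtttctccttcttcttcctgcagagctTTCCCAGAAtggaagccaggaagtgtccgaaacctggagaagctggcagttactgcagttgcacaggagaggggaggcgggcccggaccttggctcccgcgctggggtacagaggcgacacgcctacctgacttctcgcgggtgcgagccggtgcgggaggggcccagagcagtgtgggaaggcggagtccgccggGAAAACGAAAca
Ddx58, chr4:40239796-40240075, minus strand: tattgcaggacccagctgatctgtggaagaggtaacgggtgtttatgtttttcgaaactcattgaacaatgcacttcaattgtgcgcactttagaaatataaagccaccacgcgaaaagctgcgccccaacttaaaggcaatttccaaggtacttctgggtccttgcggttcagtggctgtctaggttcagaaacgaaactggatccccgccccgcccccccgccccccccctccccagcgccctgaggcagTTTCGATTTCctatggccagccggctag

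In Rsad2 the ISRE match began 120 bases before the start, and in Ifit1 there were 2 matches, beginning 104 and 85 bases before it. In Ddx58 the match began at base 3 and in Eif2ak2 at base 19 after the start, and Eif2ak2 also held a GAS match beginning 178 bases before it. Shorter windows, with up to 20 bases on each side of the match, are given for 3 neighbouring guanylate-binding protein genes, for Isg15 and Cxcl10 and for the GAS match of Irf1, because their levels went different ways. Capitals again mark matches.
Gbp7, chr3:142530263-142530312, plus strand: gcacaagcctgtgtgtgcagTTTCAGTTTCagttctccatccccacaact
Gbp3, chr3:142559979-142560028, plus strand: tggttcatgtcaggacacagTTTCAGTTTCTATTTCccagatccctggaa
Gbp2, chr3:142620584-142620633, plus strand: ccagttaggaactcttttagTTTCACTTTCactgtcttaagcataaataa
Isg15, chr4:156200867-156200916, minus strand: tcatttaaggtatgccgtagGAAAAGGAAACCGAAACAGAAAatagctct
Cxcl10, chr5:92349073-92349122, minus strand: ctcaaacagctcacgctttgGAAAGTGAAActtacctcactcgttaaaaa
Irf1, chr11:53769904-53769952, plus strand: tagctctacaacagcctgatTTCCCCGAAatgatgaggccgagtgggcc

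Of the 5 members at least 2-fold higher in Cdk14-sh, 4 had an ISRE core (Rsad2, Ifit1, Ifih1 and Gbp3), and the match of Ifih1 ended more than 30 bases after the start, near the end of the window searched. Of the 4 at least 2-fold lower with a promoter entry, 2 had one (Ddx58 and Eif2ak2), and 2 had a GAS core (Eif2ak2 and Irf1). Among members within 2-fold, 6 of 15 had an ISRE core and 4 of 15 a GAS core. The ISRE core was thus present in members that were higher, lower and little different.

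**Figure D1:**
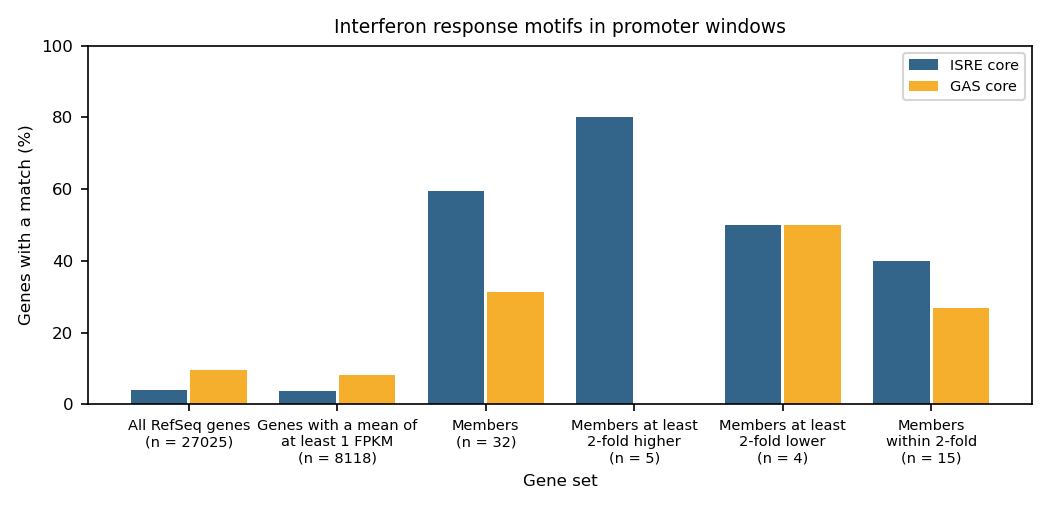
Share of genes (y axis, percent) with an ISRE core (blue) or GAS core (yellow) in the 300-base RefSeq promoter window, for all genes, genes averaging 1 FPKM or more, and the members in all and by difference (x axis; n is the number of genes with a promoter entry). Members had the ISRE core in 59.4% of cases and all genes in 3.99%, and the split by difference rests on 5, 4 and 15 genes.

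The members had no shared direction, and most were within 2-fold. Of the 27 measured members, 5 (18.5%) lay at least 2-fold higher in Cdk14-sh on the log2(FPKM + 1) scale, where 14.3% of all 12819 measured genes were, and 5 (18.5%) were at least 2-fold lower, where 13.5% of all measured genes were. The other 17 were within 2-fold. In either direction 27.8% of all measured genes were past 2-fold. The members' median log2 ratio was -0.07 and that of all measured genes 0.02, and 13 members were above 0 and 14 below. The counting interval of the ratio lay above 1 for 9 members and below 1 for 8, or 33.3% and 29.6%, against 35.9% and 33.2% of the 12782 measured genes with a known length. These shares are near the background. The summed level of the 29 listed members was 299 FPKM in Scramble control and 288 FPKM in Cdk14-sh.

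**Figure D2:**
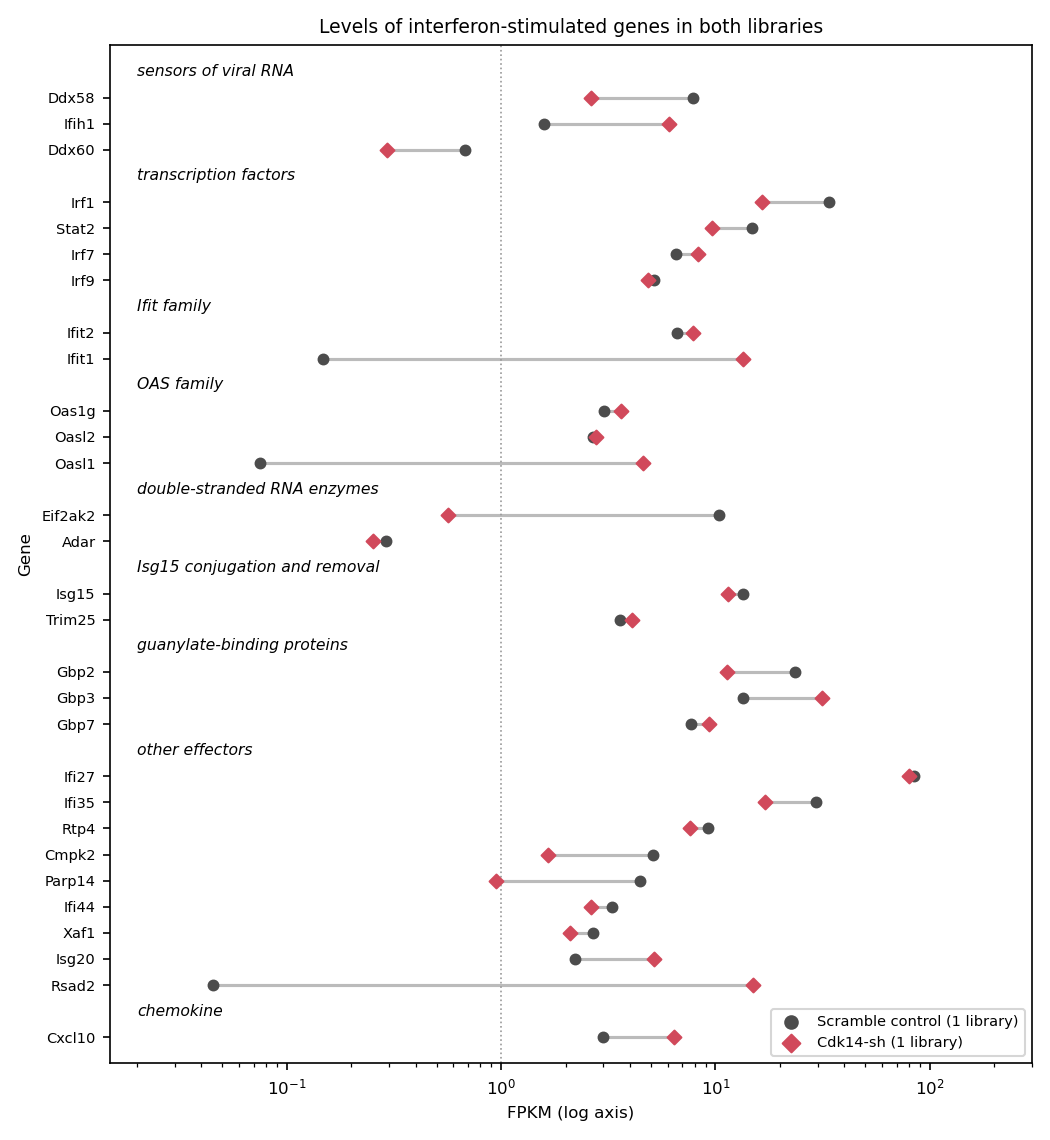
FPKM (x axis, log scale) of the 29 listed members (y axis), by role, in the Scramble control library (grey circles) and the Cdk14-sh library (red diamonds); a grey line joins both values, and the dotted line is at 1 FPKM. Rsad2, Ifit1 and Oasl1 lie far to the right in Cdk14-sh and Eif2ak2 far to the left, whereas Ifi27, Irf9 and Oasl2 overlap.

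Among the sensors of viral RNA, the 2 related helicases of the RIG-I family went opposite ways. Ifih1 (MDA5), which detects long double-stranded RNA, lies on chromosome 2 (62595798 to 62646255, minus strand, GRCm38). Ifih1 was at 1.59 FPKM in Scramble control and 6.08 FPKM in Cdk14-sh, 3.83-fold higher (2.90 to 5.09), from 132 and 505 reads. Ddx58 (RIG-I), which detects RNA with a 5′ triphosphate, lies on chromosome 4 (40203773 to 40239828, minus strand). Ddx58 was at 7.84 FPKM in Scramble control and 2.62 FPKM in Cdk14-sh, 2.99-fold lower (2.37 to 3.83), from 563 and 188 reads. The order of these 2 sensors was reversed between the libraries, with Ddx58 the higher in Scramble control and Ifih1 the higher in Cdk14-sh. The helicase gene Ddx60 was low in both, at 0.678 and 0.294 FPKM, and fell outside the measured set.

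The transcription factors that carry the response differed less. Irf1 (chromosome 11, 53770014 to 53778374, plus strand), which interferon-gamma induces, was at 34.0 FPKM in Scramble control and 16.5 FPKM in Cdk14-sh, 2.06-fold lower (1.81 to 2.36). Stat2, which acts with Irf9 in the type I response, was at 14.8 FPKM and 9.61 FPKM, 1.54-fold lower (1.32 to 1.79). The values of Irf9 were 5.15 and 4.86 FPKM, with an interval of the ratio from 0.739 to 1.21. Irf7, the factor that amplifies interferon production, was at 6.56 and 8.34 FPKM, a ratio of 1.27 (1.00 to 1.62). Irf1 was the only one of these 4 counted as 2-fold different, with a log2 ratio of -1.0 just past the limit. Gbp2, at 2.08-fold lower, fell just short of it because the pseudocount of 1 FPKM shrinks ratios.

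Within the Ifit and OAS families, 1 member stood far from its relatives. Ifit1, whose protein binds viral RNA that lacks the host cap mark, lies on chromosome 19 (34640871 to 34650009, plus strand). Ifit1 was at 0.148 FPKM in Scramble control, from 4 reads, and at 13.5 FPKM in Cdk14-sh, from 366 reads, a ratio of 91.6 (25 to 762). Its relative Ifit2 was at 6.65 and 7.86 FPKM, a ratio of 1.18 (0.932 to 1.5). Ifit1 was thus the lower of the pair in Scramble control and the higher in Cdk14-sh.

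In the OAS family, named for enzymes that make the messenger 2-5A and so activate an RNA-cutting enzyme, Oasl1 (chromosome 5, 114923240 to 114937915, plus strand) was at 0.0753 FPKM from 2 reads in Scramble control and at 4.60 FPKM from 122 reads in Cdk14-sh. The ratio of Oasl1 was 61.1 with an interval from 10.6 to 2451. Oasl2 was at 2.68 and 2.77 FPKM and Oas1g at 3.02 and 3.61 FPKM, and the intervals of both ratios held 1. Oas1g is uncertain, since 45.7% of the 50-base windows of its transcripts also occur in another gene, nearly all of them in Oas1a. For Oasl2 that share was 0.138% and for Oasl1 it was 0%.

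The kinase PKR, encoded by Eif2ak2, halts translation when it binds double-stranded RNA, and its transcript had the lowest ratio among the members. Eif2ak2 (chromosome 17, 78852564 to 78882573, minus strand) was at 10.4 FPKM in Scramble control and 0.567 FPKM in Cdk14-sh, 18.4-fold lower (10.8 to 32.8), from 544 and 29 reads. Adar, which edits adenosines in double-stranded RNA, was at 0.290 and 0.254 FPKM and was not measured by the filter. In Adar, 16.8% of exonic bases overlap Chrnb2 on the other strand. The kit was a stranded one per the labels, but the sources used here do not say if strand was used in counting.

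The 2 measured members of the Isg15 system, which attaches this ubiquitin-like protein to other proteins, were close in both libraries. The members do not hold every gene of this system. Uba7 and Herc6, kept in the list of further interferon-stimulated genes, were 2.77-fold (1.81 to 4.51) and 1.73-fold (1.36 to 2.22) lower in Cdk14-sh. Isg15 was at 13.5 and 11.4 FPKM, a ratio of 0.847 (0.554 to 1.29), and the ligase gene Trim25 at 3.58 and 4.10 FPKM, a ratio of 1.14 (0.873 to 1.5). Guanylate-binding proteins, GTPases that coat intracellular microbes, were not uniform. Gbp3 (chromosome 3, 142560026 to 142573209, plus strand) was at 13.5 FPKM in Scramble control and 31.5 FPKM in Cdk14-sh, 2.33-fold higher (1.99 to 2.75). Gbp2 (chromosome 3, 142620602 to 142638008, plus strand) was at 23.6 and 11.3 FPKM, 2.08-fold lower (1.70 to 2.55). Gbp7 was at 7.73 and 9.37 FPKM, a ratio of 1.21 (1.01 to 1.46), and 11.3% of its exonic bases overlap the gene model Gm43802 on its strand. Among the 3 genes, Gbp2 was the highest in Scramble control and Gbp3 in Cdk14-sh.

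Of the 9 other effectors, 1 (11.1%) lay at least 2-fold higher and 2 (22.2%) as far lower. Of all measured genes, 14.3% and 13.5% did. Rsad2 encodes viperin, a radical SAM enzyme that makes an antiviral nucleotide, and lies on chromosome 12 (26442746 to 26456452, minus strand). Rsad2 was at 0.0454 FPKM in Scramble control, from 2 reads, and at 14.9 FPKM in Cdk14-sh, from about 659 reads, with a ratio of 329 (58.9 to 13086). Cmpk2, the nucleotide kinase whose product feeds viperin, was at 5.13 FPKM in Scramble control and 1.66 FPKM in Cdk14-sh, 3.09-fold lower (2.11 to 4.69). Parp14, an ADP-ribosyltransferase, was at 4.43 and 0.95 FPKM, 4.66-fold lower (3.37 to 6.59).

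The remaining effectors were within 2-fold on the log2 scale. Ifi27, which encodes a mitochondrial and nuclear membrane protein, was the highest member in both libraries, at 84.0 and 80.0 FPKM, places 797 and 880 of the 15224 gene symbols. Ifi35 was at 29.5 and 17.1 FPKM, 1.73-fold lower (1.41 to 2.13). The exonuclease gene Isg20 was at 2.22 and 5.18 FPKM, a ratio of 2.34 (1.37 to 4.10). Rtp4 (9.21 and 7.65 FPKM), Ifi44 (3.30 and 2.63 FPKM) and Xaf1 (2.68 and 2.10 FPKM) had intervals that held 1. The chemokine gene Cxcl10, which draws T cells, was at 2.99 FPKM in Scramble control and 6.44 FPKM in Cdk14-sh, a ratio of 2.16 (1.43 to 3.37). In Isg20 and Cxcl10 the pseudocount kept the log2 ratios, 0.94 and 0.90, under the limit.

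Rsad2, Ifit1 and Oasl1 were the members with under 20 reads in a library, all in Scramble control. They were 3 of 27 measured members (11.1%), where 14.7% of all measured genes with a known length had under 20 reads in at least 1 library. Without them 2 members, Ifih1 and Gbp3, were at least 2-fold higher, and 5 were lower. By level, Ifi27 was followed in Scramble control by Irf1, Ifi35 and Gbp2, and in Cdk14-sh by Gbp3, Ifi35 and Irf1. The median of the 29 listed members was 5.13 FPKM in Scramble control and 6.08 FPKM in Cdk14-sh, close to the medians of all genes, 5.45 and 5.39 FPKM.

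Upstream of the members, receptor and kinase genes differed in single members. None of the 21 interferon ligand genes searched, Ifnb1 and Ifng among them, had a row, and they were not analysed here. Among 8 measured receptor and Janus kinase genes, 1 lay at least 2-fold higher in Cdk14-sh, 2 lay as far lower (14.3% and 13.5% of all measured genes did), and the median log2 ratio was -0.22. The chains of the type I receptor went opposite ways. Ifnar1 was at 7.61 FPKM in Scramble control and 18.2 FPKM in Cdk14-sh, 2.39-fold higher (2.05 to 2.80), and Ifnar2 at 18.2 and 8.26 FPKM, 2.20-fold lower (1.79 to 2.70). Of the interferon-gamma receptor chains, Ifngr1 was at 37.4 and 29.1 FPKM and Ifngr2 at 26.4 and 26.8 FPKM. Jak2, the kinase bound to Ifngr2, was at 28.6 and 5.02 FPKM, 5.70-fold lower (4.70 to 6.90). Jak1, which serves both receptors, was at 86.0 and 59.8 FPKM, 1.44-fold lower (1.36 to 1.52), and Tyk2 was low at 1.23 and 0.472 FPKM.

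Among 14 measured genes of nucleic acid sensing and interferon induction, 5 (35.7%) lay at least 2-fold lower and 3 (21.4%) as far higher, against 13.5% and 14.3% of all measured genes, with a median of -0.30. The lowest on the log2(FPKM + 1) scale were Mavs, the mitochondrial adaptor of Ddx58 and Ifih1 (12.8 and 2.0 FPKM, 6.41-fold lower, 4.45 to 9.49), Tlr3, the endosomal receptor of double-stranded RNA (3.92 and 0.717 FPKM, 5.47-fold lower, 3.33 to 9.45), and Tmem173, which encodes STING (36.5 and 12.5 FPKM, 2.91-fold lower, 2.45 to 3.48). By plain ratio the kinase gene Ikbke, 4.82-fold lower (3.36 to 7.20), came before Tmem173. The highest were Traf3 (1 read and 348 reads), the nucleic acid sensor Zbp1 (10 and 102 reads) and the Tlr3 adaptor Ticam1, 2.95-fold higher (1.70 to 5.35). Of 10 measured negative regulators, 1 lay at least 2-fold higher and 2 as far lower, near the same shares of all genes. Socs1, a direct inhibitor of Janus kinases, was at 15.9 and 34.1 FPKM, 2.15-fold higher (1.84 to 2.52). Socs3, of the same family, was at 291 and 94.0 FPKM, and Ptpn2, a phosphatase that acts on Jak1, was 3.09-fold lower (2.77 to 3.46). Irf2bp2 was at 22.4 and 45.5 FPKM and Pias1 at 18.5 and 8.80 FPKM.

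Downstream, the measured genes of the interferon-gamma GTPase list were lower together, unlike the members. The list holds the immunity-related GTPases (Irgm1, Irgm2, Igtp, Iigp1 and relatives) and further guanylate-binding proteins. Other guanylate-binding proteins were counted with the members, so this contrast depends partly on how the lists were split. Of those, Gbp3 was 2.33-fold higher, Gbp7 had a ratio of 1.21 and Gbp2 was 2.08-fold lower. In the GTPase list, Gbp4 was 2.85-fold lower (2.18 to 3.82). Of the 17 genes searched 13 had a row and 10 were measured, and 9 of the 10 were at least 2-fold lower in Cdk14-sh (90.0%, against 13.5% of all measured genes), with a median log2 ratio of -2.04. None was at least 2-fold higher. Igtp was at 34.6 FPKM in Scramble control and 2.31 FPKM in Cdk14-sh, 15-fold lower (9.80 to 23.4), from 712 and 47 reads. Iigp1 was at 25.3 and 1.70 FPKM, 14.9-fold lower (11.3 to 20.4), and Irgm1 at 28.0 and 10.3 FPKM, 2.72-fold lower (2.38 to 3.11). The exception was Gbp9, at 3.13 and 2.35 FPKM, with an interval of the ratio from 0.529 to 1.05. Tgtp1, Tgtp2 and 9930111J21Rik2 share between 59.2% and 86.6% of their 50-base windows with other genes and are uncertain, and without them 6 of 7 were at least 2-fold lower. Below the filter, Gbp8 went the other way, at 0.133 and 1.18 FPKM, from 5 and 42 reads.

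The promoter of Igtp, shown because its GAS and ISRE cores lie side by side, held the GAS match beginning 45 bases and the ISRE match beginning 34 bases before the start. It is printed as above.
Igtp, chr11:58199306-58199585, plus strand: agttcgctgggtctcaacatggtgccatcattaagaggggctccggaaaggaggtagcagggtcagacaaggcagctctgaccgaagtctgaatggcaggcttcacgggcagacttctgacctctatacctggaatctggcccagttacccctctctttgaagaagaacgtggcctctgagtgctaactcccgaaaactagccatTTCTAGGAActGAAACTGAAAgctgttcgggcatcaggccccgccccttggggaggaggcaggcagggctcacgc

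Of the 8 GTPase genes with a promoter entry, 6 had an ISRE core and 4 a GAS core.

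**Figure D3:**
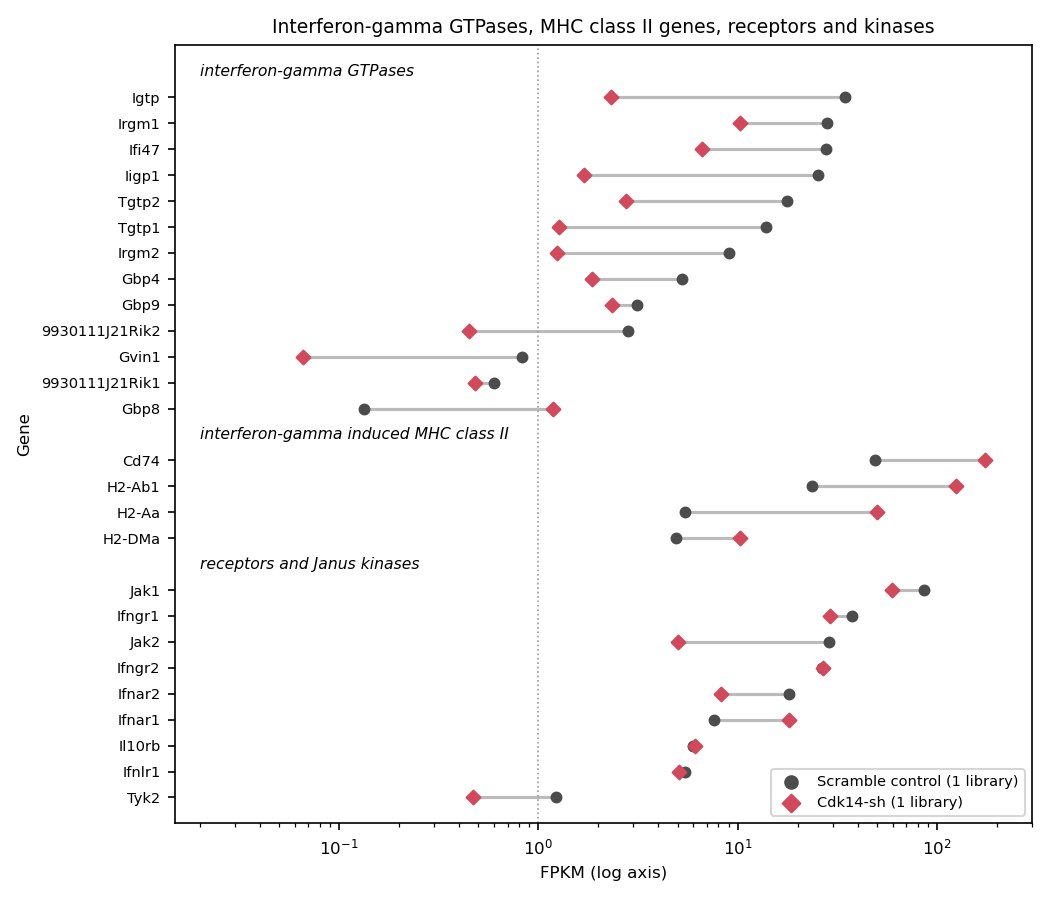
FPKM (x axis, log scale) of interferon-gamma GTPases, MHC class II genes, and receptor and kinase genes (y axis) in Scramble control (grey circles) and Cdk14-sh (red diamonds); a grey line joins both values, and the dotted line is at 1 FPKM. Every GTPase above 1 FPKM in Scramble control is further left in Cdk14-sh, and the 4 MHC class II genes are further right.

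Among further interferon-stimulated genes more lay lower than higher. Of 32 measured, 10 (31.2%) lay at least 2-fold lower and 4 (12.5%) as far higher, against 13.5% and 14.3% of all measured genes, with a median of -0.62. Over all 41 with a row, without the filter on low values, the median was -0.03. The lowest on the log2 scale were the galectin gene Lgals9 (106 and 17.7 FPKM, 5.99-fold lower, 5.14 to 7.01), Samd9l (10.9 and 1.35 FPKM, 8.10-fold lower, 5.78 to 11.8) and Rnf213 (3.82 and 0.655 FPKM, 5.84-fold lower, 4.41 to 7.94). The highest were Lgals3bp, Phf11b and Sp100, with 4, 4 and 8 reads in Scramble control. The membrane protein gene Ifitm3, which blocks viral entry, was at 1430 and 909 FPKM, 1.57-fold lower (1.5 to 1.65), a level above that of any member.

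Antigen presentation genes induced by interferon were also measured. Of 14 measured MHC class I pathway genes none lay 2-fold lower and 3 (21.4%, against 14.3% of all measured genes) lay at least 2-fold higher. These were the immunoproteasome subunit genes Psmb8, Psmb9 and Psmb10, and the median over the 14 was 0.16. Psmb9 had about 3 reads in Scramble control and 75 in Cdk14-sh. With at least 20 reads in each library, 2 of 13 were at least 2-fold higher. All 4 measured MHC class II genes were higher and 3 at least 2-fold, with H2-Aa and H2-Ab1 at log2 ratios of 2.99 and 2.35, Cd74, the invariant chain, at 49.0 and 175 FPKM and H2-DMa at 4.91 and 10.3 FPKM. Macrophage and dendritic cell markers, which share class II expression, summed to 27.7 FPKM in Scramble control and 47.8 FPKM in Cdk14-sh over the 6 of 17 with a row. Most of that sum was Cd68, at 25.8 and 32.0 FPKM. All 4 measured macrophage markers were above a log2 ratio of 0, as were the class II genes, with a median of 1.72. Of the 4, 3 were at least 2-fold higher, where 14.3% of all measured genes were. These 3 were Csf1r (1.04 and 4.23 FPKM), C1qc (0.203 and 4.07 FPKM) and Fcer1g (0.0562 and 6.97 FPKM). C1qc had 4 reads in Scramble control and 80 in Cdk14-sh, and Fcer1g 1 and 62. Both passed the filter only through their level in Cdk14-sh. Below the filter, Itgam was at 0.0409 and 0.307 FPKM and Ptprc, carried by all leukocytes, at 0.482 and 0.247 FPKM. Adgre1, Lyz2 and Itgax had no row. Of 13 T and NK cell markers 1 had a row (Trbc2, 10.9 and 23.9 FPKM), of 6 B cell markers 1 (Ighm, 0.208 and 1.04 FPKM) and of 6 neutrophil markers 1 (S100a8, 0.283 and 2.83 FPKM). The endothelial markers ranged from 2.80 to 83.0 FPKM in Scramble control and from 0.12 to 28.2 FPKM in Cdk14-sh, with 11 of 12 below a log2 ratio of 0 as were all 10 measured GTPases. Of 4 measured pericyte markers 3 were at least 2-fold lower and 1 as far higher (Des, from 2 reads in Scramble control). Among 6 measured fibroblast markers 2 were as far lower and 3 as far higher, against 13.5% and 14.3% of all measured genes. Fabp4, the 1 adipocyte marker of 6 with a row, was at 94.3 and 8.45 FPKM. For plasmacytoid dendritic cells 1 of 6 had a row (Tcf4, 4.52 and 5.49 FPKM). The part of these cell types in the levels of the members and the GTPases was not tested.

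**Figure D4:**
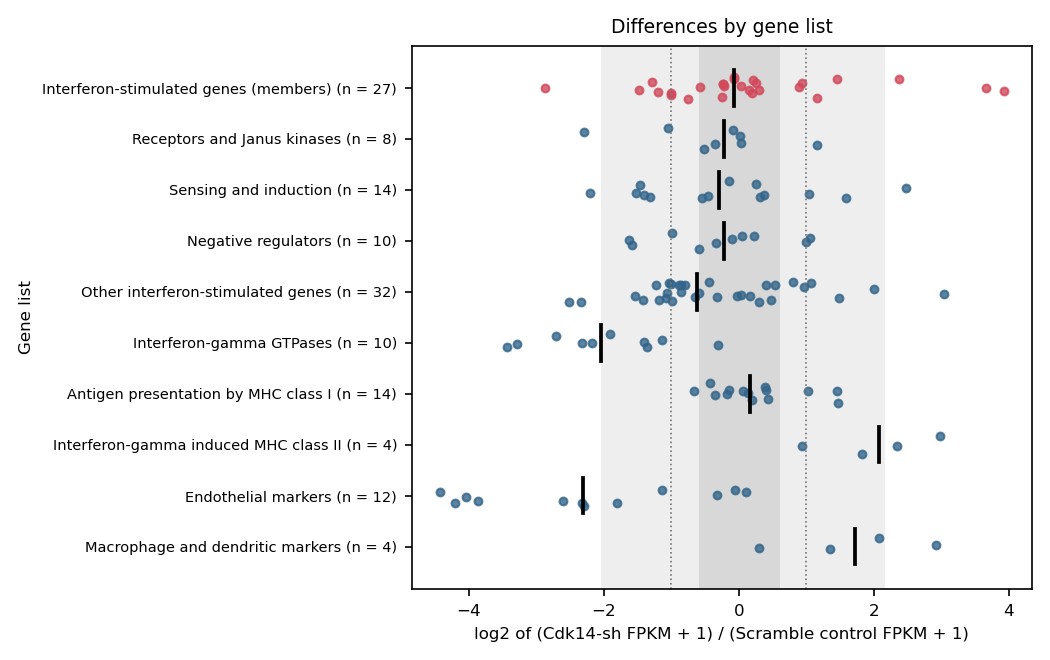
Log2 ratio of Cdk14-sh to Scramble control, with 1 FPKM added to each (x axis), for the measured genes of each list (y axis); points are genes, black bars medians, and the dotted lines 2-fold limits. The dark and light bands hold the central 50% (-0.57 to 0.60) and 95% (-2.03 to 2.16) of all measured genes, and the members have points on both sides of them, while the GTPases lie below 0, 5 of 10 of them left of the light band.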

How the data were processed

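The authors deposited 1 table of FPKM values with a column for each library, which scale fragments to gene length and library total. Bowtie 0.12.2, Subread 1.5.1 and featureCounts are listed in the submitters' processing notes, as are 2 builds, GRCm38 and mm8, whose roles are not stated. The sample labels name mouse mammary basal cells, but the human breast cancer line MDA-MB-231 appears in the design text and retinas in the extraction protocol. Since the rows carry mouse gene identifiers, the labels of the samples decided the groups.

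Of rows sharing a symbol (15), the one of higher mean was used. A gene averaging 1 FPKM or more over both libraries counted as measured, and the log2 ratio used a pseudocount of 1. Folds in the text are plain ratios of FPKM. Reads were recovered from FPKM and exonic lengths in GENCODE M21 (GRCm38), and 79.1% of 15191 genes gave multiples of 0.5 reads in both libraries (tolerance 0.01), as did 25 of the 29 members. For the others read numbers are approximate. A pair of reads was taken as 1 fragment. Intervals of a ratio come from the exact 95% Clopper-Pearson method applied to fragments and cover counting error only. Shared 50-base windows were counted over GENCODE transcripts on the sense strand. All members were named, and of the pathway lists up to 3 highest and 3 lowest measured genes by log2 ratio. Of some marker lists fewer genes or only counts are given. Other genes were named after their values were seen. Alternatives included other pseudocounts, filters, fold limits and scalings, and the summing of rows that share a symbol. A gene of the receptor and kinase list is not reported here. The members and lists were chosen with earlier results of these data known. The calculations were checked on simulated data with Python 3.11.15, numpy 2.4.6, pandas 2.3.3 and scipy 1.17.1.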

Additional observations from a re-analysis of the deposited data

How the results depend on the processing

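The numbers of members at least 2-fold higher and lower, 5 and 5, became 2 and 1 with a pseudocount of 5 FPKM, 3 and 3 when a mean of 5 FPKM was required, and 3 and 1 with a 4-fold limit. With at least 20 reads in each library, 2 were higher. That alternative, and the one without genes of shared windows, were chosen after seeing the data. The median of the GTPases, -2.04, was -1.33 with a pseudocount of 5 FPKM and -1.40 over all 13 with a row, and 5 of 10 were lower with a 4-fold limit. A larger pseudocount shrinks ratios by construction. The median over all 13 GTPases with a row admits more genes, those below the filter. The other settings admit fewer genes or set a stricter limit. The log2 scaling factors of the Cdk14-sh values were -0.02 by the median ratio and -0.01 by the upper quartile. Conversion to TPM had a factor of -0.07 between the libraries and also raised all values, so that the pseudocount weighed less. In TPM 6 members were higher and 6 lower, the GTPase median was -2.33, and Rsad2 was at 5.16, Ifit1 at 4.70, Oasl1 at 3.44 and Eif2ak2 at -3.58. Of 174 alternative log2 ratios of single members, 166 stayed within the width of the counting interval, 8 moved further, all with another pseudocount, and none at or past 2-fold changed sign. The 166 include agreements that were fixed in advance. Summing rows that share a symbol could change no member, because no member symbol was repeated. The median and upper quartile scalings could move values only by the small factors above. No paired analysis was possible because each group has 1 library. At this depth, members with under 20 reads in a library have ratios known only within wide intervals.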

Other observations

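Rsad2 and Cmpk2 lie 12.8 kb apart on chromosome 12, on opposite strands with no coding gene between them, and their log2 ratios were 3.93 and -1.20. Oasl2 and Oasl1 lie 11.0 kb apart on chromosome 5, on the same strand, with log2 ratios of 0.04 and 2.38. On chromosome 3, Gbp7 and Gbp3 lie 9.88 kb apart with 0.25 and 1.16, and Gbp3 and Gbp2 lie 47.4 kb apart, with Gbp2b between them, with 1.16 and -1.0. Ifit2 and Ifit1 lie 64.5 kb apart on chromosome 19, with 0.21 and 3.66. The GTPase genes Igtp and Irgm2, which overlap on chromosome 11, were at -3.43 and -2.17. These pairs were chosen after their values were seen, and the differences have no replicate.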
